A study of Sus scrofa with 15 samples.

Results

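The heat shock and cytosolic chaperone genes of the pig oocyte were taken as the deposited genes whose symbol began with HSPA, HSPB, HSPD, HSPE, HSPH, HSP90A or DNAJ, was CCT or BAG with a digit, or was *TCP1*, *HSF1* or *HSF2*. *HSPA5*, *DNAJB9*, *DNAJB11* and *DNAJC3*, which act in the endoplasmic reticulum, were left out. This gave 77 of 22516 genes, of which 15527 had a symbol. The transcripts of 75 of the 77 were found, and 71 passed the filter on low counts. Of the other 6, *CCT8L2* and *HSPB9* had a count of 0 in the 8 usable columns of the gene table, and *HSPA1L*, *DNAJB5*, *DNAJC5B* and *HSPB3* were below the filter. Counts below are out of the 71 tested. A member that passed the filter only through 1 group is more apt to be called changed, and such members stay among the 71. *DNAJC5*, at 0 to 7.91 counts in the libraries after maturation, is an example. Others such as *DNAJA4* (3.35 to 17.72 counts there) and *HSPB7* (3.78 to 13.84) may be of this kind. The prefixes also took mitochondrial members such as *HSPA9*, *HSPD1*, *HSPE1* and *DNAJC19*, and some of the endoplasmic reticulum such as *HSPA13* and *DNAJC10*. Members such as *HSPA2* and *CCT6A* carry no symbol in the table used and were not analysed here. *HSPA1A* and *HSPA1B*, the inducible HSP70 genes, are also not among the 77, so nothing is said here of their levels.

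The study profiled pig oocytes by RNAseq of polyA RNA in 5 libraries each of GV (germinal vesicle), MII and 'damaged' oocytes. GV oocytes came uncultured from fresh follicles, whereas MII and 'damaged' oocytes came from complexes matured in vitro for 44 h and were scored for a first polar body, present in MII and absent in 'damaged' oocytes. Cumulus cells were removed with hyaluronidase in all groups. The study's methods describe 5 independent collections, with oocytes of each group taken, so pools of different groups may share a collection. Each library pooled oocytes, and the labels give no collection, breed, animal age or animal of origin. The main tests treated the libraries as unpaired, so p-values measure the spread between these pools. Stage and culture changed together between GV and the other groups and cannot be told apart. MII and 'damaged' together are called MIX, as in the study.

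The 14 libraries compared held 12 to 23.6 M estimated counts. GV replicate 3, with 6.4 M, was left out after the study's removal of 1 GV library of low depth, and enters only the values said to rest on all 5 GV libraries. The column names of 7 of 15 columns in the gene table went against the totals of the transcript files, and libraries here follow the labels of the transcript files. Which labels were right between MII and 'damaged' was not tested. Of 8 oocyte markers 7 were found, of which *ZP2* and *BMP15* did not pass the test and *ZP4* (-0.62), *NLRP5* (-1.40), *GDF9* (-2.65), *ZP3* (-4.31) and *ZAR1* (-4.48) fell after maturation on the log2 scale, with summed levels of 9259 to 10672 CPM in GV, 4413 to 6476 in MII and 5027 to 6844 in 'damaged' libraries. The 8 of 14 cumulus and granulosa markers found summed to 1.06 to 5.98 CPM over all 14 libraries, and *CYP11A1* stayed under 3 counts in every GV library. All 7 immediate early genes, which respond to handling, were found and had a summed level of 21.9 to 35 CPM in GV libraries, against 5.37 to 12.7 CPM after maturation, and *JUNB* stayed under 3 counts in every MIX library. The 3 blood and immune markers summed to 0.148 to 1.91 CPM, with *HBB* under 3 counts in every GV and MII library. Of the immediate early genes *EGR1* (-2.47), *IER2* (-2.02) and *FOSB* (-1.30) fell with stage, *FOS* (-1.34, FDR 0.254) and *JUN* (0.76, FDR 0.0584) did not pass, and *JUNB* and *ATF3* were below the filter. The part of these genes in the chaperone results below was not tested.

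Molecular chaperones bind unfolded protein and help it fold, and many were first found because heat raises their synthesis. HSP70 proteins bind short exposed stretches in cycles of ATP hydrolysis, J-domain proteins (the DNAJ families) bring clients to them and start the hydrolysis, and nucleotide exchange factors (HSPH1, HSPA4, BAG proteins, HSPBP1) release the client. HSP90 finishes folding of kinases and receptors, the ring complex TRiC folds actin and tubulin, and HSF1 is the transcription factor that switches on heat shock genes. The fully grown oocyte is transcriptionally quiet during maturation and works from stored mRNA, so its chaperone mRNAs are largely a maternal store.

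Levels are given as CPM, counts scaled to a common library total with TMM factors, with the libraries in the order GV 1, 2, 4 and 5 and then replicates 1 to 5 of each matured group. A member was called changed at an FDR under 0.01 and a DEG at an FDR under 0.01 with an absolute log2 fold change over 2, from limma-voom over all 13220 genes. TMM assumes that most genes keep their level, and its factors ran from 1.35 to 1.73 for GV and from 0.794 to 0.922 for MIX. On library sizes alone the median of the log2 fold changes, over every gene in the fit, moved from -0.16 to -1.06, so each direction is read relative to this shift. In bulk libraries, fewer cells holding an mRNA and less of it in each cell cannot be told apart. Since polyA RNA was read, a change in polyA tails and a change in the amount of an mRNA cannot be told apart either. Members that rose or fell did so in their level in these libraries.

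Between GV and MIX, 24 of the 71 members rose and 30 fell. Of all genes tested 30.4% rose and 37.2% fell, so the members' shares of 33.8% and 42.3% were near the background. DEGs numbered 6 upregulated (8.45%, against 4.27% of all genes) and 13 downregulated (18.3%, against 16.7%). The median log2 fold change was -0.23 over the members and -0.16 over all genes. With TMM factors both directions were found within the HSP70, DNAJ, TRiC and small heat shock families, whereas no BAG member rose, and whether families were more mixed than other genes was not tested. Counts by family, here and below, rest on few genes and are to be read against the 30.4% and 37.2% of all genes. In 23 members every MIX library lay above every GV library (32.4%, against 24.3% of all genes) and in 25 every MIX library lay below (35.2%, against 29.4%).

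On library sizes 13 members rose and 46 fell, where 12.1% and 60.5% of all genes did, and 0 and 26 members were DEGs up and down, where 0.348% and 28.6% of all genes were. The same 13 rose under both scalings, and all 30 members that fell with TMM factors fell under both. Those that rose under both were *HSPA4L*, *HSPA9*, *HSP90AB1*, *DNAJA1*, *DNAJB4*, *DNAJB14*, *DNAJC2*, *DNAJC7*, *DNAJC17*, *DNAJC24*, *HSPBAP1*, *CCT7* and *CCT8*. The sign turned on library sizes for 13 members, 6 of them changed with TMM factors (*DNAJA2*, *DNAJC8*, *DNAJC9*, *DNAJC12*, *CCT2* and *CCT5*), and *CCT2* and *CCT5* were called changed under both scalings with opposite signs.

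**Figure D1:**
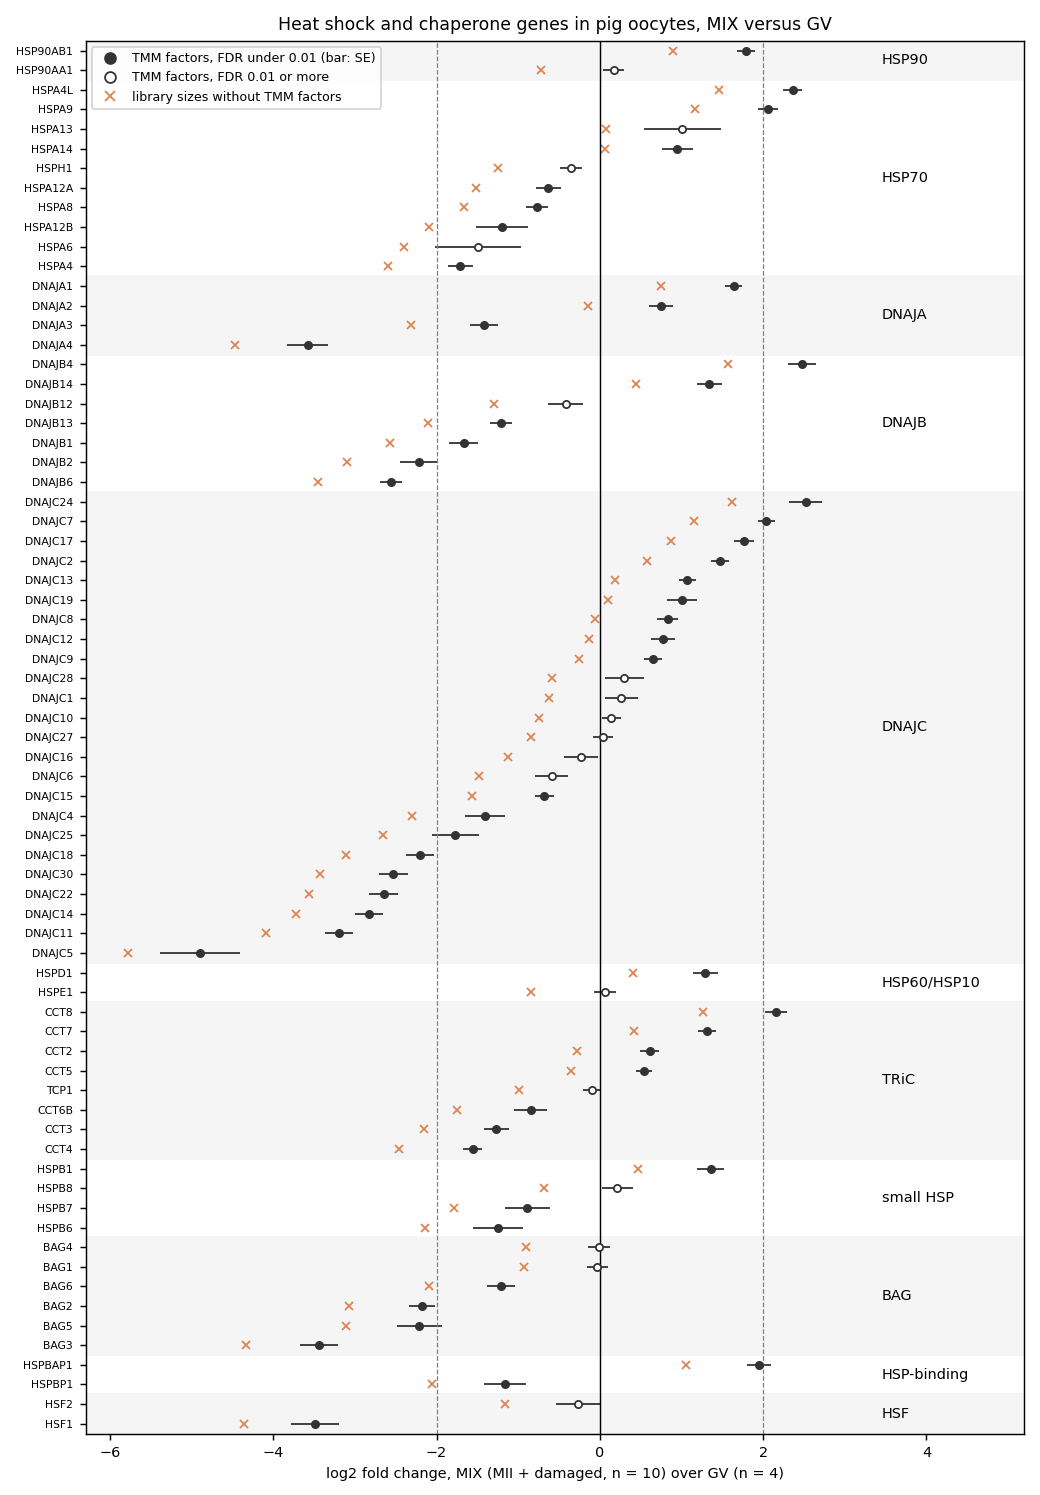
Log2 fold change of the 71 tested members between MIX (n = 10) and GV (n = 4) libraries, grouped by family, on the horizontal axis. Circles with SE bars are TMM-scaled values, filled at an FDR under 0.01, crosses are the values on library sizes, and dashed lines mark the DEG limits of -2 and 2. Each family of more than 1 changed member except BAG held members on both sides of 0 with TMM factors, and the crosses lie to the left of the circles.

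The levels of the HSP90 pair came together after maturation. *HSP90AB1* (ENSSSCG00000001701, chromosome 7, 39237299 to 39250479, Sscrofa11.1), the constitutive cytosolic HSP90, measured 266, 260.3, 234 and 232 CPM in the GV libraries. Its level was 805, 1044, 749, 974 and 779.6 CPM in MII and 765, 901, 709, 953 and 921 CPM in 'damaged' libraries. The lowest MIX library thus lay well above the highest GV library (log2 fold change 1.79 ± 0.11 SE, FDR 1.19e-11). *HSP90AA1* (ENSSSCG00000002535, on a scaffold that RefSeq gives no chromosome), the stress-inducible form, measured 800.5, 812, 708 and 807 CPM in GV, 897, 1029, 772, 913 and 903 CPM in MII and 745, 952, 608, 979 and 1112 CPM in 'damaged' libraries. The groups overlapped and the gene did not pass the test (log2 fold change 0.17 ± 0.13 SE, FDR 0.235), while on library sizes it was called lower (-0.72, FDR 4.46e-05). The ratio of the TPM of *HSP90AB1* to that of *HSP90AA1* inside a library needs no scaling between libraries. It ran from 0.301 to 0.348 in GV, from 0.903 to 1.12 in MII and 0.866 to 1.22 in 'damaged' libraries. The pair overlapped in MIX, where *HSP90AB1* measured 434 ± 61.9 TPM and *HSP90AA1* 431 ± 87.8 TPM (SD, n = 10), from 255 ± 31.7 and 773 ± 142 TPM in GV (SD, n = 4). Because the 2 proteins are close relatives, reads from shared stretches may have been divided between them by the quantifier.

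Among the HSP70 family 3 of 10 tested members rose, 4 fell and 3 did not pass the test. The family's 2 DEGs were both upregulated. *HSPA4L* (ENSSSCG00000009077, chromosome 8, 97032179 to 97088240), an HSP110-type exchange factor known from testis, measured 167, 119.7, 150.2 and 134 CPM in GV, 752, 771, 738, 794 and 696 CPM in MII and 588, 732, 623, 798 and 786 CPM in 'damaged' libraries. The groups were far apart (log2 fold change 2.36 ± 0.11 SE, FDR 2.15e-13). Its relative *HSPA4* (ENSSSCG00000014292, chromosome 2, 135345724 to 135391112) went the other way, from 128, 119, 116 and 110.2 CPM in GV to 38.8, 35, 49.8, 36.8 and 33.4 CPM in MII and 26.2, 33.3, 25.2, 42.3 and 50.7 CPM in 'damaged' libraries (log2 fold change -1.71 ± 0.15 SE, FDR 1.96e-09). In TPM the ratio of *HSPA4L* to *HSPA4* was 0.463 to 0.597 in GV, against 6.82 to 11.4 in MIX libraries. This ratio also depends on transcript length, since *HSPA4L* moved to a shorter main transcript, as given below. The third exchange factor of this type, *HSPH1*, measured 176 ± 16.1 CPM in GV (SD, n = 4) and 139 ± 25.5 CPM in MIX (SD, n = 10). Its libraries overlapped and it did not pass the test (log2 fold change -0.35 ± 0.14 SE, FDR 0.0243), but it was called lower with a filter of 10 CPM (-0.67, FDR 1.10e-04) and on library sizes (-1.25, FDR 9.94e-08).

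Among the genes of the HSP70 proteins themselves, *HSPA8* fell and *HSPA9* and *HSPA14* rose. *HSPA8* (ENSSSCG00000015140, chromosome 9, 49982278 to 49986760), the constitutive cytosolic HSC70, fell from 1466, 1075, 1231 and 1024 CPM in GV to 558, 819, 588, 783 and 964 CPM in MII and 663, 719, 533, 657 and 758 CPM in 'damaged' libraries (log2 fold change -0.77 ± 0.14 SE, FDR 4.17e-05). With all 5 GV libraries the call was lost, at a log2 fold change of -0.47 and an FDR of 0.0605. *HSPA9* (ENSSSCG00000014338, chromosome 2, 140515239 to 140532164), the mitochondrial HSP70 known as mortalin, rose from 156, 151, 170.2 and 154 CPM in GV to 661, 789.6, 559, 816 and 609.8 CPM in MII and 539.6, 741, 556, 709.5 and 634 CPM in 'damaged' libraries (log2 fold change 2.06 ± 0.12 SE, FDR 4.01e-12). All 4 GV libraries lay between 151 and 170.2 CPM. *HSPA14*, a ribosome-associated HSP70, had 249, 189, 193 and 155 CPM in GV, 275, 329, 515, 430.4 and 376 CPM in MII and 353, 415, 619.8, 317 and 255 CPM in 'damaged' libraries. Its lowest MIX library was only just above its highest GV library (log2 fold change 0.95 ± 0.19 SE, FDR 1.09e-04), and on library sizes its fold change was 0.06. Within libraries, the TPM of *HSPA9* was 0.0895 to 0.126 of that of *HSPA8* in GV and 0.531 to 0.995 in MIX.

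Several HSP70 genes had few counts or small changes. *HSPA1L*, which resembles the inducible HSP70 genes, had 0 to 3.06 counts in the GV libraries and 0 in all 10 MIX libraries, at or about the 3 counts that a count of 0 allows, so no fold is given. *HSPA6* measured 0.848 ± 0.391 CPM in GV and 0.39 ± 0.36 CPM in MIX and did not pass (log2 fold change -1.49 ± 0.53 SE, FDR 0.0145), although it passed without GV replicate 2 (FDR 0.0087), 'damaged' replicate 2 (FDR 0.00992) or 'damaged' replicate 4 (FDR 0.00411) and on library sizes (-2.40, FDR 4.26e-04). Both genes resemble *HSPA8* in sequence, so their reads are uncertain. *HSPA12A* (-0.63, at 30.6 ± 4.16 CPM in GV) and *HSPA12B* (-1.20), distant relatives, fell, the latter not without GV replicate 5 (-0.95, FDR 0.0143). *HSPA13* showed a fold change of 1.01 that did not pass at 1.2 ± 0.597 CPM in MIX.

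Of the J-domain genes, 2 of 4 DNAJA members rose and 2 fell, 2 of 7 DNAJB members rose and 4 fell, and 9 of 24 DNAJC members rose and 9 fell. *DNAJA1* (ENSSSCG00000011000, chromosome 10, 33432529 to 33445556), a main partner of cytosolic HSP70, was the most abundant of the type A members, with 1378, 1083, 1126 and 1058 CPM in GV, 3301, 3401, 3135, 3781 and 4085 CPM in MII and 3843, 3701, 4047, 3595 and 3255 CPM in 'damaged' libraries. The lowest matured library had 3135 CPM and the highest GV library 1378 (log2 fold change 1.64 ± 0.10 SE, FDR 8.66e-12). *DNAJB1* (ENSSSCG00000013784, chromosome 2, 64761672 to 64764482), the classical heat-inducible HSP40, fell from 152, 121, 112 and 149 CPM in GV to 34.8, 33, 65.1, 36.4 and 41 CPM in MII and 31.5, 40.3, 30.2, 53.5 and 66.4 CPM in 'damaged' libraries (log2 fold change -1.67 ± 0.18 SE, FDR 4.59e-08). The TPM ratio of *DNAJA1* to *DNAJB1* was 12.5 to 17.7 in GV, against 84.4 to 234.9 in MIX libraries. A relative in the same type B class, *DNAJB4* (ENSSSCG00000003766, chromosome 6, 135243927 to 135281376), was upregulated, from 99.4, 48, 68.7 and 54 CPM in GV to 378, 364, 416, 384 and 424 CPM in MII and 449.6, 350.4, 245, 303 and 344 CPM in 'damaged' libraries (log2 fold change 2.48 ± 0.17 SE, FDR 4.21e-11). In TPM *DNAJB4* was 0.475 to 0.860 of *DNAJB1* in GV and 6.79 to 18.7 times *DNAJB1* in MIX. Both TPM ratios also depend on transcript length, since the main transcript of *DNAJB1* differed in length between the stages, as given below.

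*DNAJA2*, the other abundant cytosolic type A member, had 91.9, 104, 81.4 and 108 CPM in GV, 197, 168, 119, 176 and 133 CPM in MII and 133, 193, 129.6, 194 and 203 CPM in 'damaged' libraries (log2 fold change 0.75 ± 0.15 SE, FDR 1.32e-04). Its rise depended on the counting: on library sizes the fold change was -0.14, and with Kallisto counts summed per gene without the length correction the gene was called lower (-0.41, FDR 0.00857). With a filter of 10 CPM the call was lost (0.43, FDR 0.013). *DNAJA3*, which acts in mitochondria, fell (-1.42). *DNAJA4* (ENSSSCG00000037646, chromosome 7, 47660361 to 47674890) fell further, from 5.79, 10, 6.8 and 8.0 CPM in GV to 0.663, 0.593, 0.376, 0.496 and 0.789 CPM in MII and 0.255, 0.594, 0.623, 1.14 and 0.748 CPM in 'damaged' libraries (log2 fold change -3.58 ± 0.25 SE, FDR 4.51e-11). Its MIX libraries held only 3.35 to 17.72 counts, against 113.29 to 194.79 in GV, so it may have passed the filter through GV alone. Among the remaining type B members *DNAJB6* (-2.56) and *DNAJB2* (-2.22), both suppressors of protein aggregation, were downregulated DEGs, *DNAJB13*, an axonemal protein, fell (-1.21), and *DNAJB14* rose (1.34).

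The type C genes, which are more varied in structure and task, held both the largest rise and the largest fall of the members that were DEGs without overlap. *DNAJC24* (ENSSSCG00000026083, chromosome 2, 29305688 to 29365244), which takes part in diphthamide synthesis on translation elongation factor 2, rose from 22.6, 13.1, 22.7 and 15.1 CPM in GV to 109, 82.4, 87.9, 141 and 83.4 CPM in MII and 126, 119, 116, 116 and 67.1 CPM in 'damaged' libraries (log2 fold change 2.52 ± 0.20 SE, FDR 3.33e-10). *DNAJC5* (ENSSSCG00000031602, chromosome 17, 62754630 to 62780470), the cysteine string protein of secretory vesicles, fell from 3.51, 7.69, 4.4 and 11.9 CPM in GV to 0.377, 0.0755, 0.23, 0.211 and 0 CPM in MII and 0.303, 0.151, 0.302, 0.127 and 0.533 CPM in 'damaged' libraries. Its fitted value (log2 fold change -4.90 ± 0.49 SE, FDR 1.08e-08) rests on 0 to 7.91 counts in MIX libraries and depends on the count that voom adds before taking logs. *DNAJC11* (ENSSSCG00000003384, chromosome 6, 67463366 to 67529958), a mitochondrial protein tied to the inner membrane organising complex, fell from 26.7, 38.2, 39.4 and 44.8 CPM in GV to 3.59, 3.63, 3.75, 2.99 and 5.24 CPM in MII and 2.81, 3.84, 4.16, 5.73 and 4.7 CPM in 'damaged' libraries (log2 fold change -3.20 ± 0.17 SE, FDR 9.93e-13). The other downregulated type C DEGs were *DNAJC14* (-2.83), *DNAJC22* (-2.65), *DNAJC30* (-2.53) and *DNAJC18* (-2.20).

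The other upregulated type C DEG was *DNAJC7* (2.04), a co-chaperone that binds both HSP70 and HSP90. *DNAJC17* (1.77), a splicing-associated protein, *DNAJC2* (1.47), the ribosome-bound partner of HSPA14, *DNAJC13* (1.07), an endosomal protein, and *DNAJC19* (1.00), of the mitochondrial import machinery, also rose. On library sizes *DNAJC13* (0.18) and *DNAJC19* (0.10) did not pass. *DNAJC8* (0.83, on library sizes -0.06), *DNAJC12* (0.77, on library sizes -0.13) and *DNAJC9* (0.65, on library sizes -0.25) rose with TMM factors but had no call on library sizes. *DNAJC15*, a mitochondrial inner membrane protein, was second among all members in GV at 4040.0 ± 232 TPM (SD, n = 4), and fell (log2 fold change -0.68 ± 0.12 SE, FDR 2.69e-05).

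The genes of the mitochondrial chaperonin and its lid are neighbours on chromosome 15, and the first passed the test. *HSPD1* (ENSSSCG00000016077, chromosome 15, 101360355 to 101373498), which encodes HSP60, rose from 28.5, 30.4, 34.9 and 25.2 CPM in GV to 65.4, 73.1, 70.6, 92.5 and 61.4 CPM in MII and 68.7, 90.9, 90.6, 63.7 and 53.6 CPM in 'damaged' libraries (log2 fold change 1.29 ± 0.15 SE, FDR 1.30e-07). On library sizes it kept its sign but did not pass (0.40, FDR 0.0176). *HSPE1* (ENSSSCG00000016078, chromosome 15, 101374019 to 101376146), which encodes the co-chaperonin HSP10, measured 1205, 1016, 1014 and 768 CPM in GV, 1015, 882, 1202, 991 and 1088 CPM in MII and 1118, 1114, 1304, 891 and 776 CPM in 'damaged' libraries. The groups overlapped throughout (log2 fold change 0.06 ± 0.13 SE, FDR 0.71), and on library sizes it was called lower (-0.84, FDR 1.08e-06). Per length *HSPE1* was far the more abundant, and the TPM ratio of *HSPD1* to *HSPE1* was 0.00461 to 0.00672 in GV, against 0.0110 to 0.0182 in MIX libraries.

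**Figure D2:**
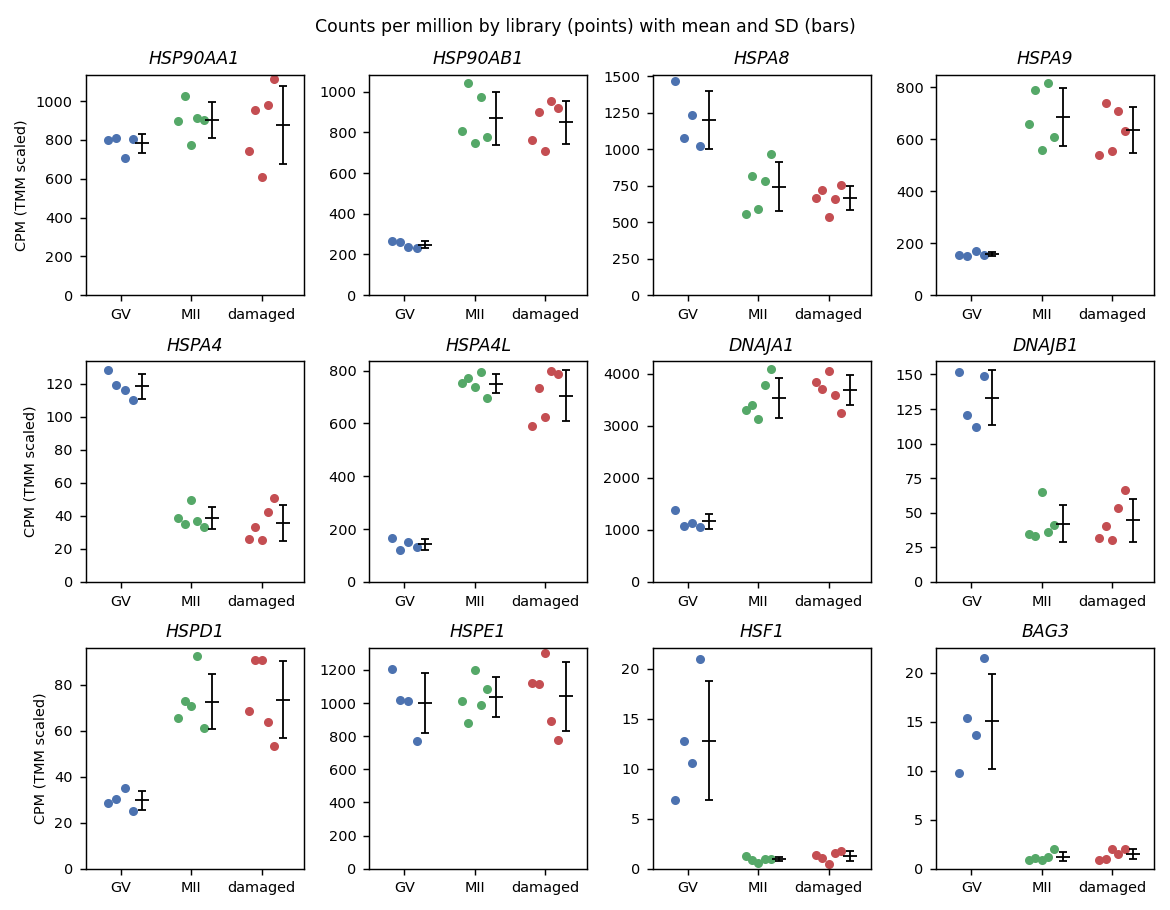
TMM-scaled CPM of 12 members in each GV (n = 4), MII (n = 5) and 'damaged' (n = 5) library, with group means and SDs as bars. *HSP90AB1*, *HSPA9*, *HSPA4L*, *DNAJA1* and *HSPD1* are higher in all matured libraries than in any GV library, *HSPA8*, *HSPA4*, *DNAJB1*, *HSF1* and *BAG3* are lower in all, and *HSP90AA1* and *HSPE1* overlap. MII and 'damaged' points overlap in every panel.

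TRiC is a ring built from equal numbers of its different subunits, and its subunit mRNAs moved in both directions. Of 8 tested genes 4 rose (*CCT8* 2.16, *CCT7* 1.31, *CCT2* 0.61 and *CCT5* 0.54), 3 fell (*CCT4* -1.56, *CCT3* -1.27 and *CCT6B* -0.85) and *TCP1* did not pass. The rises of *CCT2* and *CCT5* turn into falls on library sizes (-0.28 and -0.36). *CCT6B*, a paralog best known from testis, was not called with all 5 GV libraries (-0.64, FDR 0.0185). *CCT8* (ENSSSCG00000026761, chromosome 13, 192407831 to 192423466), which encodes the theta subunit, rose from 615, 379, 435 and 328 CPM in GV to 1983, 2129.5, 1701, 2089 and 1887 CPM in MII and 2120.4, 1922, 1927, 1821 and 1556 CPM in 'damaged' libraries (log2 fold change 2.16 ± 0.13 SE, FDR 6.58e-12). *TCP1* (ENSSSCG00000004048, chromosome 1, 7590140 to 7600709), the alpha subunit, measured 115, 102, 101 and 101 CPM in GV, 106, 105, 90.9, 99.1 and 111 CPM in MII and 84.8, 90.2, 79.4, 100.1 and 117 CPM in 'damaged' libraries, and the groups overlapped (log2 fold change -0.10 ± 0.11 SE, FDR 0.437). It was called lower on library sizes (-0.99, FDR 1.04e-07) and with a filter of 10 CPM (-0.42, FDR 0.00136).

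As shares of the summed TPM of the 7 subunits analysed (TCP1, CCT2, CCT3, CCT4, CCT5, CCT7 and CCT8), which no scaling between libraries alters, the make-up shifted towards 1 subunit. *CCT8* held 20.3 to 25.9% in GV, 51.0 to 55.4% in MII and 48.9 to 58.2% in 'damaged' libraries. *CCT3*, the gamma subunit, went from 24.2 to 26.7% in GV to 3.78 to 7.32% in MIX libraries. *TCP1* went from 8.27 to 10.7% in GV to 3.96 to 6.25% in MIX, and *CCT4*, the least abundant, from 1.17 to 1.41% to 0.198 to 0.322%. The share of *CCT2* was lower in every MIX library (19.2 to 22.8%) than in every GV library (23.2 to 27.3%), by a smaller margin than that of *CCT3*. Those of *CCT5* (10.6 to 14.3% and 8.29 to 10.8%) and *CCT7* (2.37 to 4.40% and 3.78 to 5.00%) overlapped between the stages. *CCT6B*, tested above, was not among the 7. Shares of a total are not independent of each other, and this measure was chosen after the values were seen, so it is given as a description with no test.

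**Figure D3:**
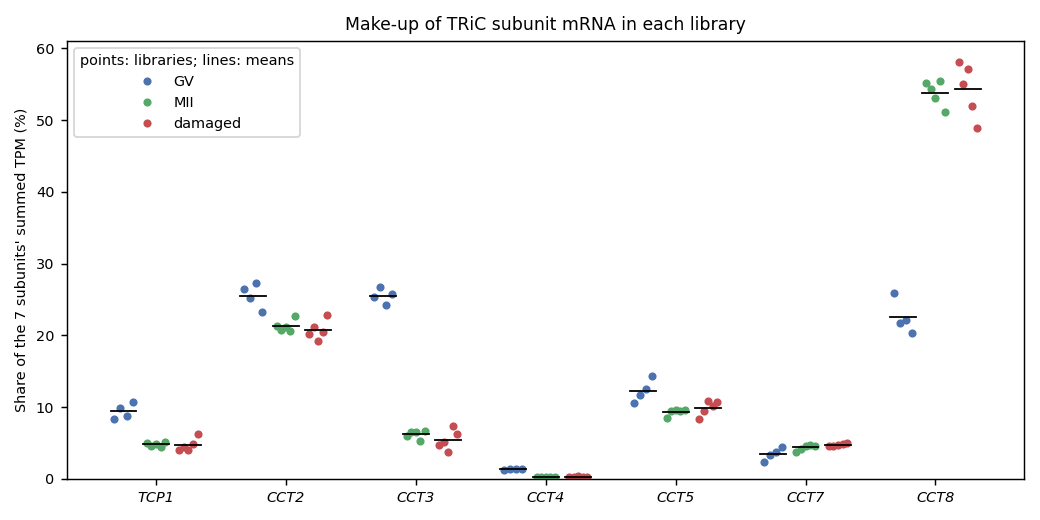
Share of each of 7 TRiC subunits in their summed TPM (vertical axis, %) in each GV (n = 4), MII (n = 5) and 'damaged' (n = 5) library, with group means as lines. *CCT8* goes from 20.3 to 25.9% in GV to 48.9 to 58.2% in the matured libraries, while *CCT3* goes from 24.2 to 26.7% to 3.78 to 7.32%.

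Of the 4 tested small heat shock genes 1 rose and 2 fell. *HSPB1* (ENSSSCG00000039962, chromosome 3, 10038074 to 10039441), which encodes HSP27, measured 9.44, 10.6, 13.5 and 13.6 CPM in GV, 23, 25.4, 24.9, 25.6 and 36 CPM in MII and 33.4, 27.7, 33.7, 37.1 and 37.2 CPM in 'damaged' libraries. All matured libraries were above the GV libraries (log2 fold change 1.36 ± 0.17 SE, FDR 2.26e-07), but on library sizes it did not pass (0.47, FDR 0.0294). *HSPB6* (-1.25) and *HSPB7* (-0.89), known from muscle, fell at levels of 2.28 ± 1.18 and 1.06 ± 0.314 CPM in GV, and the call of *HSPB7* was lost in 8 of the 14 fits that leave out 1 library (FDR 0.0106 to 0.0302). *HSPB8*, the small heat shock partner of BAG3, did not pass, at 1.67 ± 0.312 CPM in GV and 1.9 ± 0.204 CPM in MIX (0.21), and was called lower on library sizes (-0.68, FDR 0.00445).

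Of the 6 BAG co-chaperones 0 rose, 4 fell and 2 did not pass, where 30.4% of all genes rose and 37.2% fell. With 6 genes, no trait of the family is read from this. *BAG3* (ENSSSCG00000010686, chromosome 14, 129510240 to 129533998), a stress-inducible exchange factor that steers clients to autophagy, fell from 9.8, 15.3, 13.6 and 21.5 CPM in GV to 0.937, 1.13, 0.915, 1.15 and 1.99 CPM in MII and 0.903, 0.977, 1.98, 1.54 and 1.99 CPM in 'damaged' libraries (log2 fold change -3.44 ± 0.24 SE, FDR 4.22e-11). *BAG6* (ENSSSCG00000001410, chromosome 7, 23756897 to 23768659), which triages membrane proteins that fail insertion, fell from 10.7, 14.5, 12.5 and 20.4 CPM in GV to 7.65, 6.26, 6.29, 4.64 and 6.45 CPM in MII and 8.52, 5.31, 5.73, 5.64 and 6.14 CPM in 'damaged' libraries (log2 fold change -1.21 ± 0.17 SE, FDR 2.10e-06). *BAG2* (-2.18), an inhibitor of the ligase STUB1, and *BAG5* (-2.21) were downregulated DEGs. *BAG1* (-0.03) and *BAG4* (-0.01) stayed near 0 with TMM factors and had fold changes of -0.93 and -0.90 on library sizes. Of the heat shock protein binding genes, *HSPBP1*, an exchange factor of HSP70, fell (-1.16), and *HSPBAP1*, whose product binds HSPB1, rose (1.95).

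*HSF1* (ENSSSCG00000005917, chromosome 4, 463531 to 486483), the main heat shock transcription factor, was downregulated, from 6.92, 12.7, 10.6 and 21 CPM in GV to 1.23, 0.901, 0.61, 1.02 and 1.0 CPM in MII and 1.38, 1.08, 0.495, 1.55 and 1.81 CPM in 'damaged' libraries (log2 fold change -3.49 ± 0.30 SE, FDR 1.01e-09). GV replicate 5 held the highest and GV replicate 1 the lowest GV value, and both were above every matured library. *HSF2* (ENSSSCG00000004238, chromosome 1, 40147267 to 40180308), a relative with known roles in gametogenesis, measured 2.66, 2.09, 5.62 and 2.75 CPM in GV, 2.97, 2.61, 2.18, 2.63 and 2.39 CPM in MII and 6.0, 2.0, 1.96, 1.96 and 2.25 CPM in 'damaged' libraries. The libraries overlapped and the gene did not pass (log2 fold change -0.27 ± 0.27 SE, FDR 0.363), but was called lower on library sizes (-1.16, FDR 5.72e-04).

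Per length, the members together summed to 16865 to 18149 TPM in GV, 10255 to 12354 TPM in MII and 10965 to 12455 TPM in 'damaged' libraries, on the authors' TPM scale without TMM factors. Few genes carried most of this sum. *HSPE1* came first in GV at 5675 ± 355 TPM and *DNAJC15* second, followed by *HSPA8* (1297 ± 43), *DNAJA1* (1271 ± 82.1) and *HSP90AA1* (773 ± 142, SD, n = 4). *HSPA8* and *DNAJA1* did not differ beyond their spread there. In MIX *HSPE1* stayed first (2934 ± 471 TPM), *DNAJA1* came second (1956 ± 173), then *DNAJC15* (1254 ± 188) and *CCT8* (678 ± 25.2, SD, n = 10). *HSPA8* moved from the third to the seventh place (379 ± 73.8), where it did not differ from *HSP90AA1* beyond the spread. Of the members' summed TPM, the mean share of *DNAJC15* went from 23% to 11% and that of *DNAJA1* from 7.23% to 17.2%.

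Besides gene levels, the use of transcript isoforms was compared as the isoform fraction, the share of a gene's TPM held by 1 transcript, and dIF, the difference of MIX minus GV between fractions taken from each group's mean TPM. The fractions are Kallisto estimates from short single-end reads, which the quantifier divides between transcripts that share sequence. The switches below are thus changes in these estimates. An isoform counted as DTU (differential transcript usage) when its FDR was under 0.01 and its dIF over 0.1 in size. Of 80 member isoforms tested in 31 genes, 47 in 23 genes were DTU isoforms. Of all isoforms tested 46.9% were, and of all genes tested 68.8% had one, against 58.8% and 74.2% of the members'. Genes entered the test only if an isoform already differed by a dIF over 0.1 in size in these same libraries. These shares are thus among preselected genes, not among all members or all genes. Of the 23 genes 19 were not DEGs and 6 were not changed at the gene level. Only 4.27% of all genes tested were upregulated and 16.7% downregulated DEGs. The same counts over all genes with a DTU isoform are not given here, so no trait of the members is read from them. In 42 of the 47 isoforms the fractions of MIX and GV libraries did not overlap (89.4%, against 70.3% of all DTU isoforms).

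The largest switches included genes that did not pass the test at the gene level with TMM factors. *HSP90AA1* was held in GV by the transcript of 2844 bases (ENSSSCT00000058545), with fractions of 0.886, 0.903, 0.874 and 0.901. Its fractions were 0.214, 0.199, 0.177, 0.185 and 0.149 in MII and 0.267, 0.154, 0.237, 0.149 and 0.13 in 'damaged' libraries (dIF -0.71, FDR 1.20e-81). The transcript of 2298 bases (ENSSSCT00000045247) took its place, from 0.060, 0.0455, 0.050 and 0.0636 in GV to 0.766, 0.78, 0.786, 0.788 and 0.813 in MII and 0.71, 0.808, 0.729, 0.831 and 0.845 in 'damaged' libraries (dIF 0.74, FDR 2.22e-137). The main *HSP90AA1* transcript of fresh oocytes thus held at most 0.267 of the gene in all 10 matured libraries. *HSPH1* behaved likewise. Its transcript of 3511 bases (ENSSSCT00000010229) held 0.000116 to 0.177 of the gene in GV, 0.765 to 0.903 in MII and 0.88 to 0.94 in 'damaged' libraries (dIF 0.81, FDR 2.18e-09). The transcripts of 3029 and 3224 bases lost their share, with dIF of -0.55 and -0.19.

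*DNAJC6*, which encodes auxilin, the J-domain protein that uncoats clathrin vesicles, exchanged a transcript of 5669 bases (ENSSSCT00000043320, 0.775 to 1.0 in GV, 0.0293 to 0.149 in MII and 0 to 0.241 in 'damaged' libraries, dIF -0.82, FDR 7.90e-06) for one of 2945 bases. The latter (ENSSSCT00000102355) was listed at 0 TPM in all 4 GV libraries and held 0.861, 0.876, 0.681, 0.851 and 0.808 in MII and 0.732, 0.806, 0.487, 0.848 and 0.876 in 'damaged' libraries (dIF 0.80, FDR 1.65e-38). Levels in MIX were low, at a mean of 0.265 TPM for the longer and 2.85 TPM for the shorter of these transcripts. *DNAJB1* lost its transcript of 1983 bases (ENSSSCT00000015061), which held 0.771, 0.817, 0.752 and 0.80 in GV, 0, 0, 0.029, 0.0989 and 0.176 in MII and 0.117, 0.14, 0.134, 0.116 and 0.0756 in 'damaged' libraries (dIF -0.70, FDR 2.34e-08). Its transcript of 4802 bases (ENSSSCT00000063660) held the rest. In TPM, which holds no TMM factors, the fall of *DNAJB1* lay mostly in the shorter transcript, at 66.4 TPM in GV and 1.17 TPM in MIX. The longer one was at 17.9 and 12.5 TPM, and its change on the TMM scale of the gene-level value was not tested.

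The next largest switches were in *DNAJA2*, *DNAJC16* and *HSPA4L*, which are named after their values were seen. In *DNAJA2* the transcript of 5192 bases gave way to one of 1220 bases, which held 0.121 to 0.212 in GV, 0.753 to 0.802 in MII and 0.698 to 0.825 in 'damaged' libraries (dIF 0.61, FDR 3.02e-76). In *HSPA4L* the transcript of 2771 bases held 0.118 to 0.235 in GV and 0.634 to 0.743 in MII and 0.549 to 0.772 in 'damaged' libraries (dIF 0.50, FDR 1.69e-22). A change of isoform length moves the length-corrected gene count: with Kallisto counts summed per gene the fold change of *DNAJB1* was -0.77, of *HSPA4L* 1.67, of *DNAJC16* -0.96 and of *DNAJC6* -1.28, the last pair then called changed, as on library sizes (-1.12 and -1.48). *DNAJC6* was also called lower with all 5 GV libraries (-0.63), with a filter of 10 CPM (-0.91) and without MII replicate 3 (-0.66). Of 20 member genes with a DTU isoform in each direction, the isoform that gained most was the shorter in 14 (70%), as in 61.6% of all such genes. Both HSP90 genes, *HSPA8*, *HSPA9*, *HSPD1*, *TCP1*, *CCT3* and *CCT7* were among the 23 genes. In *CCT7* the transcript of 2412 bases went from 0.373 to 0.778 in GV to nearly the whole gene in MIX libraries (at least 0.982), and in *TCP1* that of 1487 bases went from 0.0221 to 0.0907 in GV to 0.188 to 0.506 in MIX libraries.

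**Figure D4:**
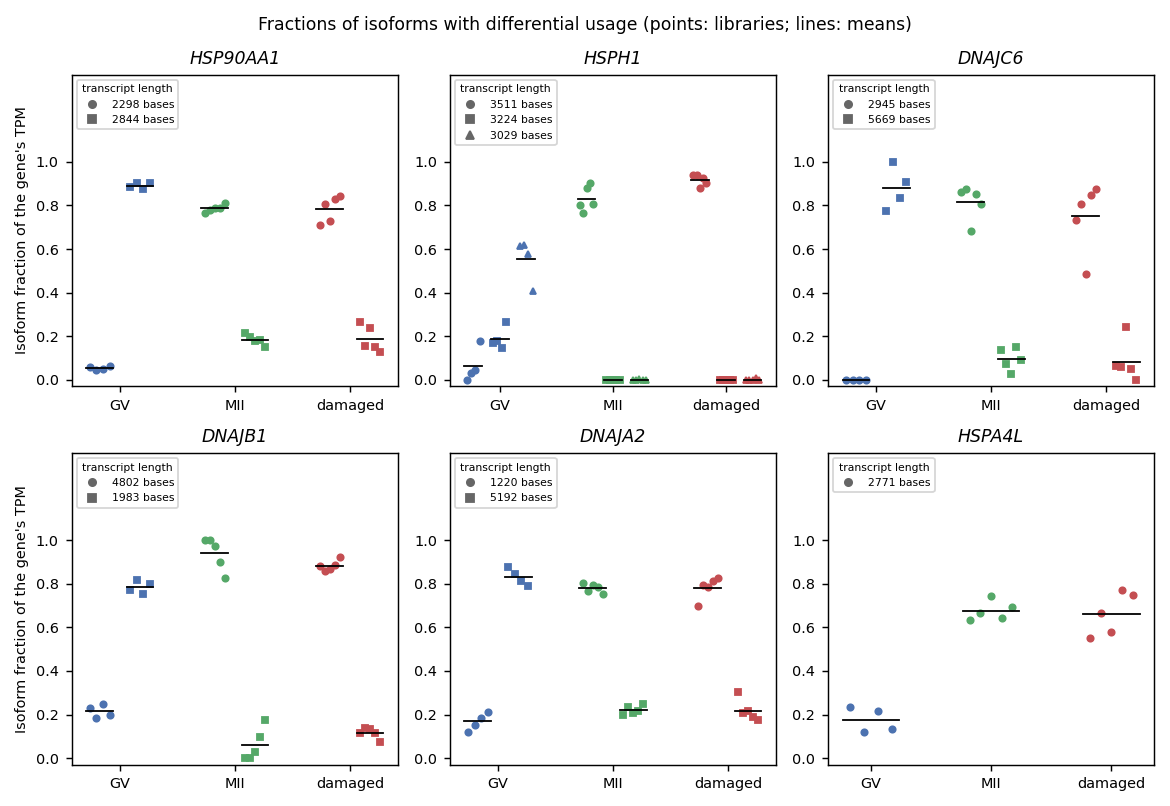
Isoform fractions of the DTU isoforms of 6 members in each GV (n = 4), MII (n = 5) and 'damaged' (n = 5) library, with group means as lines and a marker for each transcript named by its length in bases. In *HSP90AA1*, *HSPH1*, *DNAJC6*, *DNAJB1* and *DNAJA2* the transcript that holds most of the gene in GV libraries holds at most 0.302 of it in every matured library. In *HSPA4L* the transcript shown goes from at most 0.235 to at least 0.549.

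Each matured group was also set against GV in a fit of all 3 groups, with the GV libraries shared by both comparisons. In MII 24 members rose and 30 fell, where 28.2% and 34.2% of all genes did. In 'damaged' oocytes 24 rose and 27 fell, where 28% and 33.4% did. The log2 fold change of *HSPA4L* was 2.40 in MII and 2.31 in damaged oocytes, that of *HSP90AB1* was 1.80 in MII and 1.77 in damaged oocytes, that of *HSPA8* was -0.70 in MII and -0.84 in damaged oocytes and that of *HSF1* was -3.63 in MII and -3.34 in damaged oocytes. For *CCT8* it was 2.19 in MII and 2.12 in damaged oocytes, and for *BAG3* -3.56 in MII and -3.32 in damaged oocytes.

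The direct comparison asked whether oocytes with and without a polar body differed in chaperone mRNA. Between MII and 'damaged' oocytes 0 of 71 members and 0% of all genes passed an FDR under 0.01 in either direction in limma-voom. At an unadjusted p under 0.05 there was 1 member (1.41%), *HSPB1*, against 195 of all genes (1.48%). It was lower in MII, at -0.33 (95% interval -0.65 to -0.01) on the log2 scale (FDR 1.0). DESeq2 and edgeR also called 0 members. The differences ran from -1.29 (*HSPA6*) to 0.30 (*CCT3*), and 54 of 71 were under 0.2 in size. The groups follow the labels of the transcript files. Which labels were right between MII and 'damaged' was not tested, and the intervals do not cover an error in them. Within that limit the intervals set how far this goes. That of *HSP90AA1* was 0.06 (95% interval -0.23 to 0.36), that of *HSPA9* 0.11 (95% interval -0.16 to 0.38), that of *DNAJA1* -0.06 (95% interval -0.29 to 0.17) and that of *CCT8* 0.07 (95% interval -0.23 to 0.37). For the rarer *HSF1* it was -0.29 (95% interval -1.28 to 0.70) and for *DNAJC5* -0.93 (95% interval -2.67 to 0.82), wide enough to hold a difference of 1. In 60 of 71 members the interval stayed within -1 and 1. Isoform usage was compared after the values above were seen. Of the 15 member isoforms that could be tested between MII and 'damaged', 0 were DTU isoforms (smallest FDR 0.374), against 0.0816% of all isoforms tested. At an unadjusted p under 0.05 there were 2 of these 15, against 270 of all 2452 isoforms tested, so the members were near the background.

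**Figure D5:**
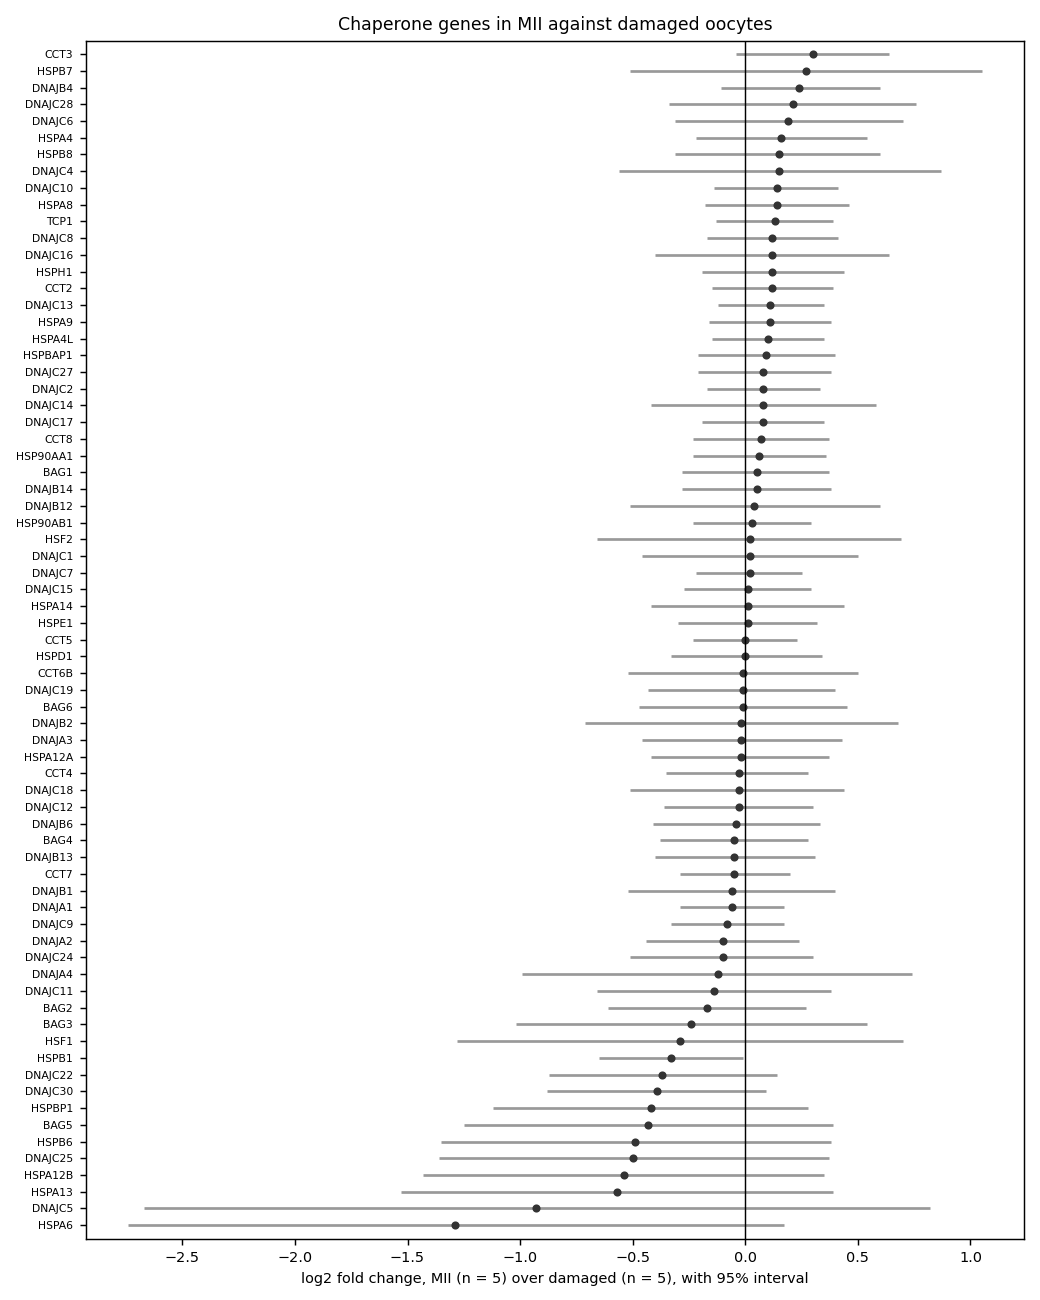
Log2 fold change of MII (n = 5) over 'damaged' (n = 5) oocytes for the 71 tested members, with 95% intervals from limma-voom on the horizontal axis. The intervals of all members but *HSPB1* include 0, and those of 60 members stay within -1 and 1.

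Other genes of the chaperone system that the symbols above do not take were read from a list of 35 co-chaperones, prefoldins and partners of the heat shock factors. Of the 33 found and tested 12 rose (36.4%, against 30.4% of all genes) and 15 fell (45.5%, against 37.2%). On library sizes 5 rose and 20 fell (15.2% and 60.6%, against 12.1% and 60.5%). Their median log2 fold change was 0.11 with TMM factors. Among HSP90 co-chaperones *AHSA1*, which activates its ATPase, rose (1.97), as did *PPID* (1.51), *PPP5C* (1.45), *CDC37L1* (1.19), *CHORDC1* (1.01), *PTGES3* (0.82) and *FKBP5* (0.68). On library sizes *PTGES3* (-0.07) and *FKBP5* (-0.21) turned sign. *STIP1* (-2.29), the adaptor that hands clients from HSP70 to HSP90, *FKBP4* (-3.13), *NUDC* (-2.63) and the kinase-specific *CDC37* (-1.38) fell. *UNC45A* (-1.15), *TTC4* (-1.06) and *SUGT1* (-0.54) also fell. *ST13* (1.24), a stabiliser of client-bound HSP70, rose and *STUB1* (-1.52), the ubiquitin ligase of the system, fell. The prefoldin genes parted, with *PFDN4* at 1.77 and *PFDN1* at -2.20. *HSBP1* (-3.28), an inhibitor of HSF1, and *HSF4* (-4.62) fell alongside *HSF1*. *RPAP3* (2.02) of the R2TP complex was the list's 1 upregulated DEG (3.03%, against 4.27% of all genes), while its partner *RUVBL2* fell (-1.86). Downregulated DEGs of the list numbered 6 (18.2%, against 16.7% of all genes).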

How the data were processed

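The authors trimmed the reads with AfterQC and quantified them with Kallisto (0.43 in the submitters' processing notes) on the Ensembl cDNA of Sscrofa11.1, which gave the deposited estimated counts and TPM per transcript. The authors then summarised these with tximport (lengthScaledTPM) into the deposited estimated counts of the gene table. Of 15 columns 7 were not used, since their totals were those of libraries with other labels. Transcripts were assigned to 17637 genes by exact TPM sums in the other 8 columns, and counts per gene recomputed for all 15 libraries (99.986 to 99.998% of counts). The kit does not mark strand, so overlapping antisense transcripts cannot be told apart.

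Gene counts were filtered with filterByExpr (minimum count 10, total 15) and tested with limma 3.58.1 voom in R 4.3.3 with TMM factors of edgeR 4.0.16 on 14 libraries, with Benjamini-Hochberg FDR over 13220 genes. DTU used the DEXSeq model in DESeq2 1.42.0 on rounded counts (gene TPM over 1, isoform fraction over 0.05, dIF over 0.1 in the gene). Both were tested on simulated data. Alternatives were library sizes, DESeq2, edgeR, other filters, summed Kallisto counts, all 5 GV libraries, a replicate block and leaving out each library. Positions are from RefSeq on Sscrofa11.1 by symbol. Members named with values per library were chosen by role, with the 5 largest rises and falls among DEGs without overlap, and isoforms by the 6 largest dIF. Members and lists were chosen with earlier results of these data known. Promoter and protein sequences were not analysed here. Python 3.11.15 was used for summaries.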

Additional observations from a re-analysis of the deposited data

Results flagged for a closer look

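Among the 25 members with values per library that were tested, each of 3 groups was checked for a library far from the rest by Dixon's ratio of the gap to the range, on TMM-scaled CPM. Of 75 groups 8 had such a library, and chance flags about 1 in 20. *HSP90AA1* was low in GV replicate 4, at 708 CPM against 800.5 to 812 in the other GV libraries. *TCP1* was high in GV replicate 1, at 115 CPM against 101 to 102. *HSPB1* was high in MII replicate 5, at 36.0 CPM against 23.0 to 25.6, and *BAG3* was high in the same library, at 1.99 CPM against 0.915 to 1.15. *DNAJB1* was high in MII replicate 3, at 65.1 CPM against 33.0 to 41.0. *BAG6* and *HSF2* were high in 'damaged' replicate 1, at 8.52 CPM against 5.31 to 6.14 and at 6.0 CPM against 1.96 to 2.25. *DNAJC24* was low in 'damaged' replicate 5, at 67.1 CPM against 116 to 126. *HSPB1*, *BAG3*, *DNAJB1*, *BAG6* and *DNAJC24* kept their calls between GV and MIX without the library named, and *HSP90AA1*, *TCP1* and *HSF2* had no call with or without it.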

How the results depend on the processing

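The scaling moved the results most. On library sizes 0 members were upregulated and 26 downregulated DEGs in MIX versus GV, 13 rose and 46 fell, 11 rose in MII and 13 rose and 46 fell in 'damaged' oocytes against GV, and 5 of the other chaperone genes rose. There the fold change of *DNAJA2* was -0.14, of *DNAJC1* -0.62, *DNAJC8* -0.06, *DNAJC9* -0.25, *DNAJC10* -0.75, *DNAJC12* -0.13, *DNAJC27* -0.85, *DNAJC28* -0.59, *HSPE1* -0.84, *HSP90AA1* -0.72, *CCT2* -0.28, *CCT5* -0.36 and *HSPB8* -0.68, each with the sign turned. With a filter of 10 CPM 3 members were upregulated DEGs, and *DNAJC1* (-0.06), *DNAJC10* (-0.18), *DNAJC27* (-0.28), *HSPE1* (-0.27) and *HSP90AA1* (-0.15) turned sign, all without a call in the main fit. Summed Kallisto counts turned *DNAJA2* (-0.41), *HSP90AA1* (-0.04) and *BAG4* (0.03). All 5 GV libraries turned *BAG1* (0.01), *DNAJC27* (-0.04) and *TCP1* (0.04), DESeq2 *BAG1* (0.02) and *BAG4* (0.03), and no filter *BAG1* (0.01) and *BAG4* (0.03). At an absolute dIF over 0.2, 29 member isoforms remained DTU isoforms. For these the cause was not tested beyond the construction of each alternative.

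The replicate numbers were not taken to pair the libraries, since no label ties a number to a collection and only 5 of 13 pairs with the same number correlated above 0.1 (-0.112 to 0.364). However, the study's methods describe 5 collections, with oocytes of each group taken. Of 14 libraries, 8 correlated best with a library of their own number. Pairing by collection may thus be part of the design, and the main tests did not use it. The values given above for MII against 'damaged' oocytes are from the fit without a block. What a block does to that comparison and its intervals is not given here. With the replicate number as a block the members still gave 24 that rose and 30 that fell, with 6 and 13 DEGs, 23 DTU genes and 46 DTU isoforms, and turned *BAG1* (0.01) and *HSPE1* (-0.02). Leaving out each library gave 24 that rose and 28 to 31 that fell, 5 to 7 upregulated DEGs and 20 to 24 DTU genes. It moved the fold changes of *BAG1* between -0.08 and 0.00, *BAG4* between -0.10 and 0.08, *DNAJC27* between -0.03 and 0.10, *HSPE1* between -0.06 and 0.17 and *HSF2* between -0.44 and 0.03. Of the 71 members 40 kept their direction and their side of the threshold under every alternative. At this depth *HSPA1L*, *DNAJB5*, *DNAJC5B* and *HSPB3* could not be tested.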
